A study of Mus musculus with 12 samples.

Results

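Notch signaling genes were followed in 12 RNA-seq samples of mouse mammary tissue. The 10 genes were the receptors Notch1, Notch2, Notch3 and Notch4, the ligands Jag1, Jag2, Dll1 and Dll4, and the target genes Hes1 and Hey1, out of 23704 gene names in the normal and tumor files and 23691 in the files of the injected mice. They were taken by name, and all 10 were found in all 12 samples. Normal samples were mammary glands of untreated FVB wild type females, where each of 3 replicates pooled the abdominal and inguinal glands of 3 mice. Tumor samples were untreated thoracic gland tumors of MMTV-PyVT females, 1 mouse for each of 3 replicates. The DMSO and C646 groups were mammary tumors of MMTV-PyVT mice injected with the solvent or with C646, an inhibitor of the acetyltransferase p300, with 3 tumors in each group. The labels give 1 mg/kg for both injections. All mice were 12 weeks old. In MMTV-PyVT mice the polyoma virus middle T oncogene is driven by the mouse mammary tumor virus promoter, so that the oncogene is on mainly in mammary epithelium. Tissue, gland position and the number of pooled mice changed together between normal and tumor samples and cannot be told apart.

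Notch receptors are single-pass membrane proteins. A ligand of the Jagged or Delta-like family on a neighbouring cell exposes the receptor to cleavage by ADAM proteases and then by gamma-secretase, and the freed intracellular part enters the nucleus, where it joins the DNA-binding protein RBPJ, a Mastermind-like protein and acetyltransferases such as p300 to switch on targets of the Hes and Hey families. Hes and Hey proteins are transcriptional repressors. In the mammary gland the pathway is known for a role in luminal cell fate, in blood vessels Notch4 and Dll4 are known as endothelial genes, and Notch3 is known as a gene of mural cells, which wrap the vessels.

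The promoter windows of Notch1, Notch2, Jag1 and Dll1 are shown because these receptors and ligands were the ones whose shares of their family changed most between normal and tumor samples. RefSeq promoters on GRCm38.p6 were matched for 8 of the 10 genes, with 9 start sites in all, because Dll1 has 2. None was matched for the targets Hes1 and Hey1, so the searches below cover receptors and ligands only. The 250 bases before each start were searched on both strands for the RBPJ core TGGGAA, for the GC box GGGCGG and for TATAAA. Bases of the gene's own GENCODE exons were left out of the printed windows. Capitals mark a GC box on either strand. The Notch1 window (chr2:26503825-26504072, minus strand) lies inside the longer Notch1 gene of GENCODE, upstream of an exon, the Notch2 window (chr3:98013288-98013526, plus strand) and the Jag1 window (chr2:137116645-137116770, minus strand) end at the first annotated exon, and the Dll1 window (chr17:15376933-15377182, minus strand) lies in an exon of A930024N18Rik, a gene of the other strand.
Notch1: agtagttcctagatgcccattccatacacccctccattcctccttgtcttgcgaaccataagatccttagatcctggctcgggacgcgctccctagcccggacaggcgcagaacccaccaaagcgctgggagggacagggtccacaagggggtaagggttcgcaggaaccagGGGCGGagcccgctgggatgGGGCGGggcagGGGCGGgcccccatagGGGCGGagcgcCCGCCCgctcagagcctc
Notch2: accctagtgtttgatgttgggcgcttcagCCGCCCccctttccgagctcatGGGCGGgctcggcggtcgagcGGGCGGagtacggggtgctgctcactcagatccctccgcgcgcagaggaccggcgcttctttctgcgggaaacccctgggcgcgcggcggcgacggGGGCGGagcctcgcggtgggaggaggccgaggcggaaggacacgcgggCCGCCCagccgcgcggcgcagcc
Jag1: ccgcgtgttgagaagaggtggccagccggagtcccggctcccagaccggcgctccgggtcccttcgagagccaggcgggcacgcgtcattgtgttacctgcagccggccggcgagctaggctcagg
Dll1: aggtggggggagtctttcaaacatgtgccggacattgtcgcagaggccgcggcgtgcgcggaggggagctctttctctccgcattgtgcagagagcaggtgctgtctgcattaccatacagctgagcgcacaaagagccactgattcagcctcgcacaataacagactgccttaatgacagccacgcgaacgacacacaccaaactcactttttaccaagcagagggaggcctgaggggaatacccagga
The Notch1 and Notch2 windows each held 5 GC boxes, while those of Jag1 and Dll1 held 0. A GC box was present in 5 of the 9 windows of these genes, against 32.7% of 32851 mouse promoters. TGGGAA was present in 0 of 9 windows, against 21.6% of all promoters, and TATAAA in 0 of 9, against 12.4%. These counts describe letters in a short window only. Notch1, which rose in tumors, and Notch2, which fell, both carried GC boxes. Dll1, which rose, and Jag1, which fell, both lacked them, whereas the window of Dll4, also called lower, held 2.

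All values are FPKM, fragments scaled by transcript length and by library size, so that levels can be compared between genes per length. Differences were tested with limma on log2(FPKM + 0.03125) over every gene that reached 1 FPKM in 3 or more of the 6 samples of a comparison, and a gene was called at a Benjamini-Hochberg adjusted p under 0.05. All 10 genes passed this filter in both comparisons. An exact permutation test of 3 samples against 3 cannot go below p = 0.1. The labels and methods give separate mice. In the normal and tumor samples 13031 genes were tested, of which 28.8% were called higher and 31.7% lower in tumors. The marker genes of other cell types moved strongly too. Summed FPKM of 6 luminal epithelial genes lay between 413 and 874 in normal samples and between 2588 and 3511 in tumors, and 6 adipocyte genes fell from between 16619 and 21220 to between 85.6 and 1240. Summed FPKM of 5 skeletal muscle genes lay between 5.47 and 64.2 in normal samples and between 1374 and 3878 in tumors, and that of 5 lymphocyte genes between 229 and 293 in normal samples and between 0.442 and 0.494 in tumors, with Ms4a1, a B cell gene, at 0 in all 3 tumors. The part of these cell types in the results below was not tested, and in bulk tissue fewer cells of a type and less RNA per cell cannot be told apart.

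In tumors against normal tissue, 4 of the 10 genes were higher, 3 were lower and 3 were not called. The higher genes were Notch1, Dll1, Hes1 and Hey1, and the lower genes were Notch2, Jag1 and Dll4. Both targets rose, whereas receptors and ligands each split, with 1 receptor and 1 ligand higher. The shares of 40% higher and 30% lower stand beside 28.8% and 31.7% over all genes tested, so the count of called genes was near the background, and the median log2 fold change was -0.23 for the 10 genes and -0.02 for all genes. In the 7 called genes no tumor value lay within the range of the normal values, and over all genes this held for 33.1% in the higher and 35.8% in the lower direction.

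**Figure D1:**
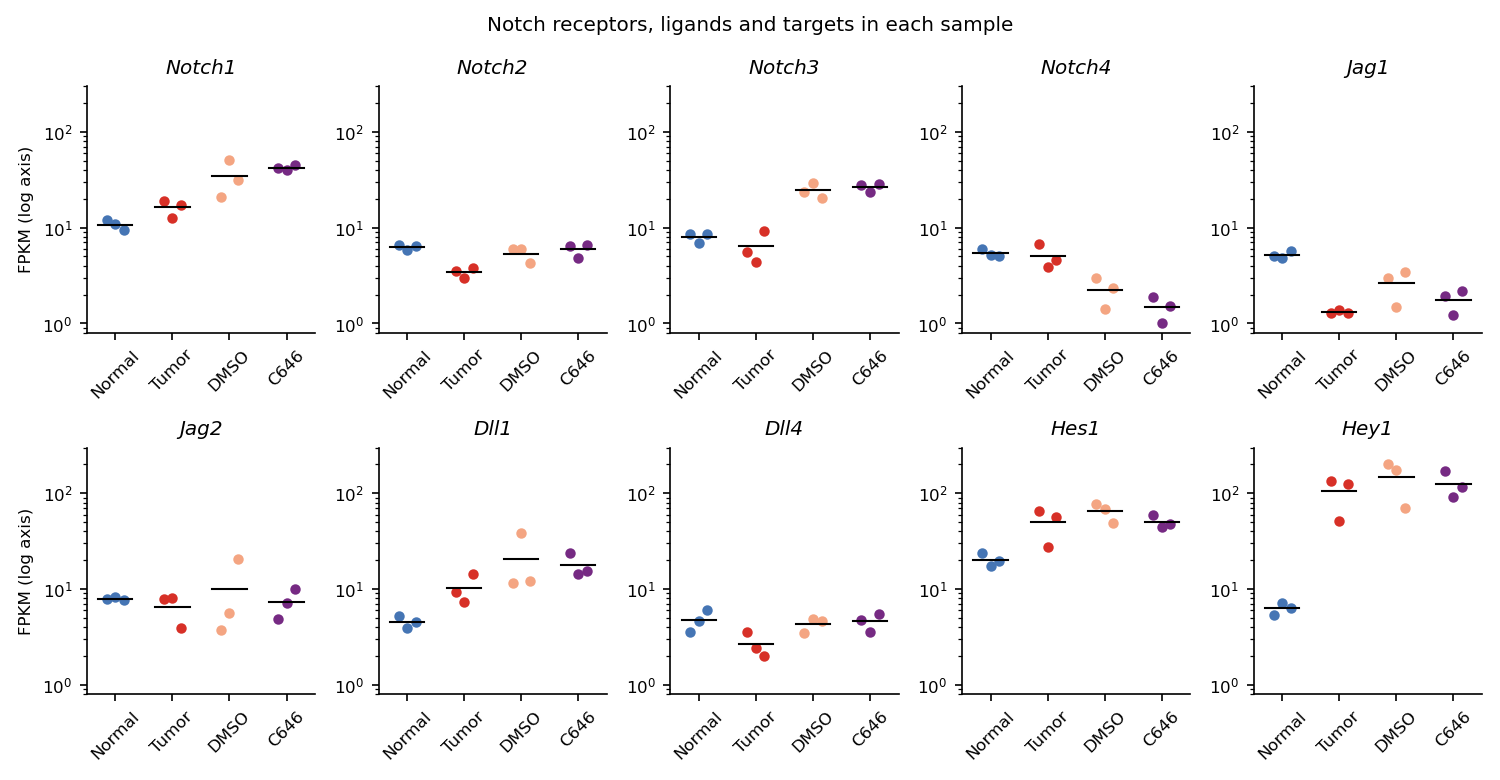
FPKM on a log axis of the 10 genes in each of the 12 samples, with 1 point per sample and a line at the group mean. Hey1 lay between 5.35 and 7.17 in normal samples and between 51.5 and 135 in untreated tumors, and Jag1 was lower in every tumor than in every normal sample.

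Hey1, a repressor of the hairy and enhancer-of-split related family, had the largest change of the 10 genes. It measured 5.35, 7.17 and 6.40 FPKM in normal samples and 135, 51.5 and 126 FPKM in tumors. The lowest tumor was thus well above the highest normal sample. The mean rose from 6.31 ± 0.913 to 104 ± 45.9 FPKM (SD, n = 3 each), a ratio of 16.5, and the log2 fold change was 3.93 with a standard error of 0.36 and a limma adjusted p of 1.24e-04. Hey1 ranked 220 among 13031 genes ordered from the highest log2 fold change. Hes1, a classical Notch target, measured 23.7, 17.5 and 19.5 FPKM in normal samples and 65.7, 27.4 and 57.1 FPKM in tumors. Its log2 fold change was 1.22 with a standard error of 0.32 and a limma adjusted p of 0.0138, and without Normal replicate 2 the adjusted p was 0.0519. The ratio of Hey1 to Hes1 was 0.225, 0.409 and 0.328 in the normal samples and 2.06, 1.88 and 2.21 in the tumors. Hes1 was the most abundant of the 10 genes in normal tissue, and Hey1 in tumors. Tumor replicate 2 had the lowest level of both targets. Its summed luminal marker level was 2588 FPKM, against 3511 FPKM in Tumor replicate 1 and 2644 FPKM in Tumor replicate 3. The part of luminal cells in the levels of the targets was not tested. Of the 6 luminal marker genes 5 rose in the tumors as well. Relative to the mean log2 level of these 6 genes, Hey1 was higher in tumors by 1.51, whereas Hes1 was lower, with a difference of -1.2004, from -2.20, -1.59 and -1.87 to -2.88, -3.78 and -2.61. On the same relative scale the other genes called higher, Dll1 and Notch1, were lower in tumors, with differences of -1.30 and -1.83. The groups did not overlap in any of these 4 genes, although Hey1 did so narrowly, with -2.88 in Normal replicate 2 and -2.87 in Tumor replicate 2, and the exact permutation test gave p = 0.1 for each.

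Among the receptors, Notch1 was the most abundant in both tissues. It measured 11.9, 10.9 and 9.33 FPKM in normal samples and 19.1, 12.6 and 17.0 FPKM in tumors. The tumor values lay above all normal values, but Tumor replicate 2 was only slightly higher than Normal replicate 1. The log2 fold change was 0.59 with a standard error of 0.19 and a limma adjusted p of 0.0323. This call was lost without Normal replicate 2 (adjusted p = 0.0739), without Normal replicate 3 (0.114), without Tumor replicate 1 (0.0786) or without Tumor replicate 3 (0.0883), all by limma. Notch2 went the other way, with 6.61, 5.84 and 6.41 FPKM in normal samples and 3.497, 2.99 and 3.81 FPKM in tumors. Its replicates were close in both groups, and the log2 fold change of -0.87 had a standard error of 0.17 and a limma adjusted p of 0.00356. The ratio of Notch1 to Notch2 accordingly differed between the tissues, being 1.79, 1.87 and 1.46 in normal samples and 5.46, 4.21 and 4.47 in tumors.

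Notch3 and Notch4 were not called. Notch3 measured 8.51, 6.83 and 8.59 FPKM in normal samples and 5.53, 4.42 and 9.20 FPKM in tumors, so that the highest and the lowest value of all 6 samples were both tumors. The log2 fold change was -0.38 with a 95% confidence interval from -1.04 to 0.27. Without Tumor replicate 3, Notch3 was called lower, with a log2 fold change of -0.68 and a limma adjusted p of 0.0308. Notch4 measured 5.93, 5.13 and 5.07 FPKM in normal samples and 6.75, 3.90 and 4.60 FPKM in tumors. The groups overlapped, and the log2 fold change of -0.12, which was 0.24 after quantile normalization, had a 95% confidence interval from -0.66 to 0.43. Notch1 shares 1068 exon bases with 0610009E02Rik and 414 with Gm13568, and Notch3 shares 488 with Gm17276, all of the other strand, and Notch2 shares 541 with Gm42820 of its own strand. Reads from such shared bases cannot be told apart in libraries without strand. All 4 receptors were lowest among the tumors in Tumor replicate 2, where their summed level was 23.9 FPKM, against 34.9 and 34.6 FPKM in the others.

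In the untreated tumors the level of Notch4 did not follow that of the endothelial marker genes. All 8 endothelial genes fell in tumors, among them Pecam1, the adhesion molecule CD31, from 57.0 ± 6.53 to 8.30 ± 2.62 FPKM and Kdr, a receptor of vascular endothelial growth factor, from 15.3 ± 3.96 to 1.66 ± 0.272 FPKM (SD, n = 3 each). Their summed level lay between 238 and 265 FPKM in normal samples and between 41.6 and 83.2 FPKM in tumors. Relative to the mean log2 level of these 8 genes, Notch4 stood at -2.06, -2.29 and -2.50 in normal samples and at 0.01, -0.50 and 0.28 in tumors. The groups did not overlap, the difference was 2.21 on the log2 scale, and the exact permutation test gave p = 0.1, the smallest it can give. In the injected mice Notch4 stood at -0.66, -1.89 and -1.73 in DMSO tumors and at -1.56, -2.33 and -2.15 in C646 tumors on this scale. All lay below every untreated tumor, and 2 of these 6 tumors lay within the range of the normal samples. The Esam and Egfl7 rows of the injected mice are joined with other genes, so the scale is not quite the same there. Dll4, set against the same 8 genes, moved from -2.79, -2.43 and -2.23 to -0.90, -1.19 and -0.91, a difference of 1.48 with the same exact p = 0.1. The log2 fold changes of the 8 endothelial genes ranged from -3.28 for Tek to -1.27 for Emcn, beside -0.85 for Dll4. The size of the difference thus depends on the markers averaged. Notch3 was set against 6 mural genes, of which 5 fell and Des, a muscle filament gene that is also expressed in skeletal muscle, rose. It stood at -0.40, -0.79 and -0.56 in normal samples and at 0.43, 0.22 and 1.495 in tumors (exact permutation p = 0.1). Jag1 stood at -1.15, -1.28 and -1.13 relative to the mural genes in normal samples and at -1.65, -1.42 and -1.31 in tumors, a difference of -0.27 (exact permutation p = 0.1), and relative to the endothelial genes the difference was 0.38 with overlapping groups (exact permutation p = 0.3). The 5 mural genes that fell had log2 fold changes from -3.40 (Cspg4) to -1.97 (Pdgfrb), all below the -1.95 of Jag1, while Des had 1.80. The negative sign of the Jag1 difference from the mural genes therefore rests on Des.

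**Figure D2:**
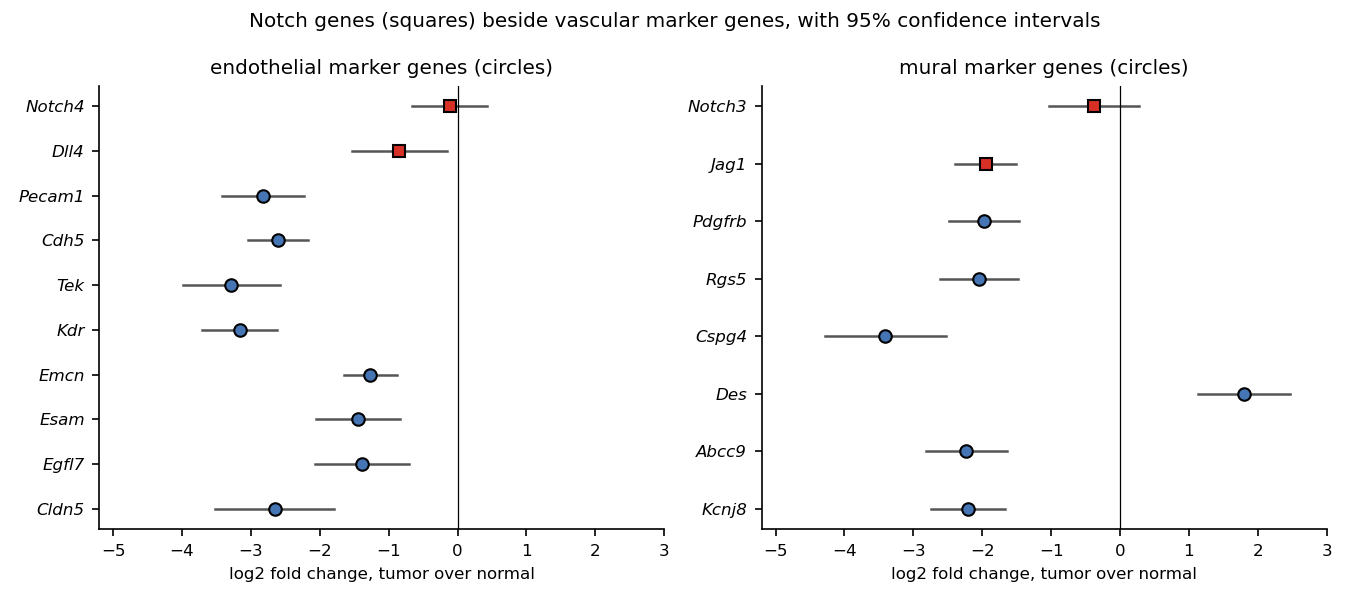
Log2 fold changes of tumor over normal with 95% confidence intervals for Notch4 and Dll4 beside 8 endothelial marker genes, and for Notch3 and Jag1 beside 6 mural marker genes, where squares are Notch genes and circles are markers. The intervals of Notch4 and Notch3 include 0, while all endothelial markers and 5 of the 6 mural markers lie below it.

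Among the ligands, Jag1 fell most. It measured 5.02, 4.84 and 5.74 FPKM in normal samples and 1.29, 1.39 and 1.29 FPKM in tumors. The 3 tumors were nearly equal and far below every normal sample, with a log2 fold change of -1.95, a standard error of 0.19 and a limma adjusted p of 1.54e-04. Dll1 rose, from 5.30, 3.90 and 4.53 FPKM to 9.32, 7.33 and 14.3 FPKM. Its log2 fold change was 1.12 with a standard error of 0.27 and a limma adjusted p of 0.00836. Dll1 shares 867 exon bases with A930024N18Rik of the other strand, and the same limit holds for it. The ratio of Dll1 to Jag1 was 1.06, 0.805 and 0.789 in normal samples and 7.23, 5.28 and 11.04 in tumors.

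Dll4 measured 3.57, 4.68 and 6.09 FPKM in normal samples and 3.57, 2.40 and 2.0002 FPKM in tumors. Normal replicate 1 and Tumor replicate 1 differed only in the sixth digit, so the separation of the groups was marginal. The log2 fold change was -0.85 with a standard error of 0.29 and a limma adjusted p of 0.0389. The call was lost with a replicate block (adjusted p = 0.0903), without a filter on low values (0.0520), and after quantile normalization, where the log2 fold change was -0.36 (adjusted p = 0.332). It was also lost without Normal replicate 2 (0.0957), Normal replicate 3 (0.142), Tumor replicate 2 (0.0834) or Tumor replicate 3 (0.110). Dll4 shares 214 exon bases with Gm14207 of the other strand, which measured 0.563, 1.51 and 1.65 FPKM in normal samples and 6.44, 1.02 and 2.54 FPKM in tumors. Jag2, read from a row that joins it with the microRNA gene Mir6941, measured 7.82, 8.21 and 7.64 FPKM in normal samples and 7.81, 8.01 and 3.90 FPKM in tumors. One tumor was low and the other two lay within the normal range, and the log2 fold change was -0.33 with a 95% confidence interval from -1.005 to 0.34.

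**Figure D3:**
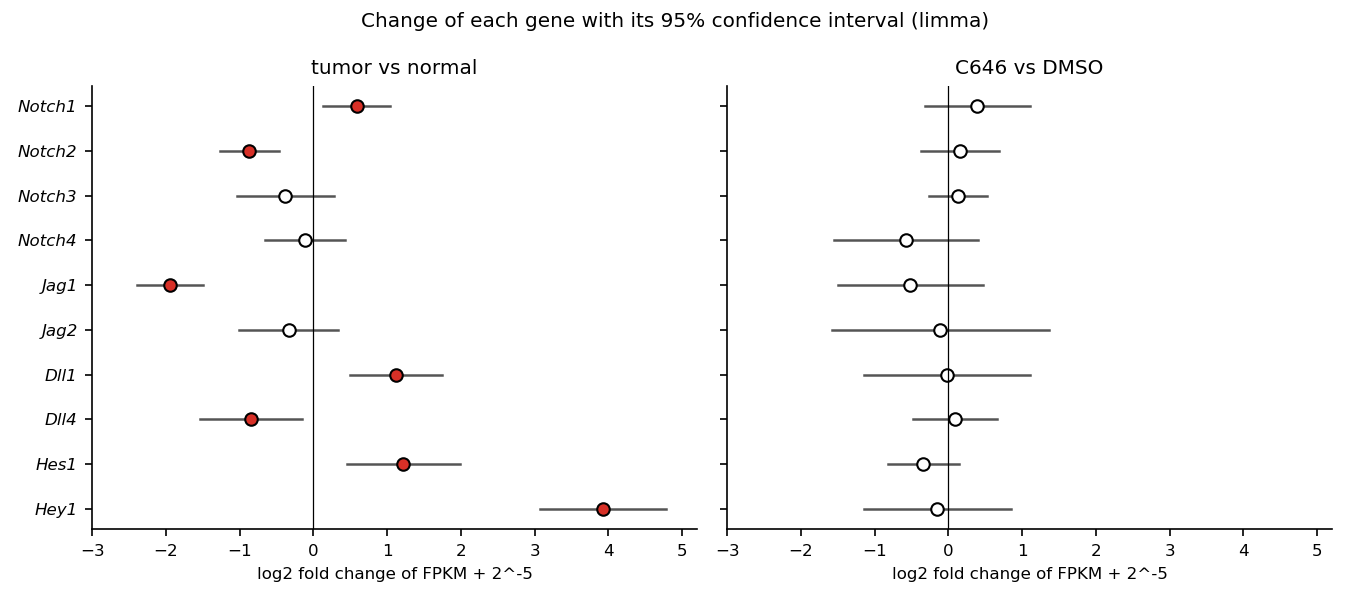
Log2 fold change of each gene with its 95% confidence interval in tumor against normal (left) and C646 against DMSO (right), where filled points are genes with an adjusted p under 0.05. The left panel has 7 filled points, with Hey1 at 3.93 and Jag1 at -1.95, and the right panel has 0.

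The total of each family changed less than its make-up. The summed level of the 4 receptors was 30.3 ± 2.25 FPKM in normal samples and 31.1 ± 6.26 FPKM in tumors (SD, n = 3 each), and that of the 4 ligands was 22.4 ± 1.35 and 20.9 ± 1.52 FPKM. Within the receptor sum, Notch1 took 36.0%, 38.0% and 31.7% in normal samples and 54.7%, 52.7% and 49.2% in tumors. Notch2 took 20.1%, 20.3% and 21.8% in normal samples and 10.03%, 12.5% and 10.99% in tumors. These shares did not overlap (exact permutation p = 0.1 for each). Within the ligand sum, Dll1 took 24.4%, 18.0% and 18.9% in normal samples and 42.4%, 38.3% and 66.5% in tumors, and Jag1 took 23.1%, 22.4% and 23.9% against 5.86%, 7.25% and 6.02%. Jag2 remained a large part in both, with a mean of 35.3% in normal samples and 31.9% in tumors. Dll4 took 16.4%, 21.6% and 25.4% in normal samples and 16.2%, 12.6% and 9.32% in tumors.

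**Figure D4:**
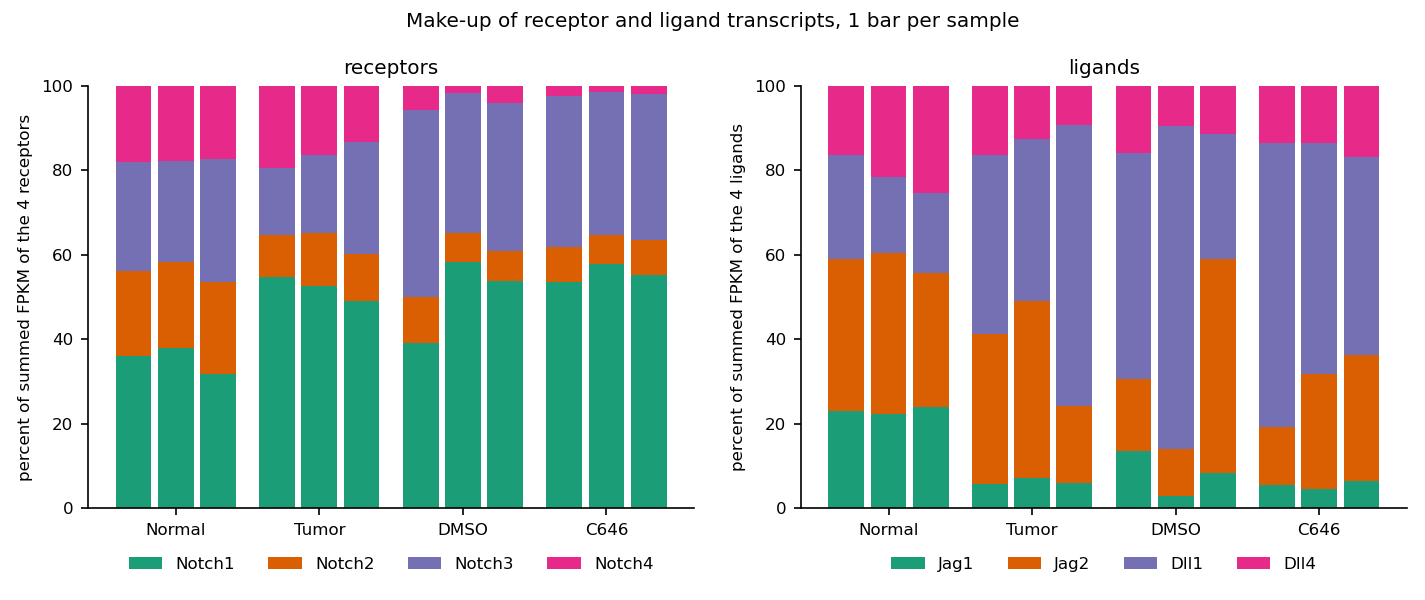
Percent of the summed FPKM of the 4 receptors (left) and of the 4 ligands (right), with 1 bar per sample, where Notch1 and Jag2 of the injected mice are sums of 2 rows. From normal to untreated tumor samples the Notch1 part grew from a mean of 35.3% to 52.2% and the Dll1 part from 20.4% to 49.1%, while the Jag1 part shrank from 23.1% to 6.38%.

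Other genes of the pathway were read from a list of 77 genes ordered by role, of which 65 were tested in tumor against normal. Of these, 16 were higher, 28 were lower and 21 were not called, with a median log2 fold change of -0.41 beside -0.02 for all genes. These shares were 24.6% higher and 43.1% lower, beside 28.8% and 31.7% over all genes tested, and the counts for each role below stand against the same background, with at most 11 genes in a role. Of 8 glycosylation genes tested, 5 fell and 1 rose. Mfng and Lfng, Fringe enzymes that lengthen sugars on the Notch receptor and change its response to ligands, fell by 4.76 ± 0.32 and 3.24 ± 0.26 on the log2 scale (standard error), and Rfng, the remaining Fringe gene, rose by 0.65 ± 0.17. Mfng measured 78.6 ± 8.71 FPKM in normal samples and 3.09 ± 1.48 FPKM in tumors (SD, n = 3 each). Xxylt1, a xylosyltransferase, fell by 0.92 ± 0.21. Of 3 other ligands tested, the matrix proteins Mfap2 and Mfap5 were lower (log2 fold changes -2.53 and -1.46). Of 5 genes for ligand endocytosis, Neurl1a rose and Neurl3 fell, whereas Mib1, the main ligand ubiquitin ligase, had overlapping values of 3.47 ± 1.23 and 3.001 ± 1.12 FPKM.

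Proteases changed in both directions. Of 9 tested, Psenen, a gamma-secretase subunit, and Furin, which cuts the receptor during its maturation, rose by 0.78 and 0.49 on the log2 scale, and Psen2, a catalytic subunit, and the joined row of Aph1b and Aph1c fell by 1.55 and 0.58. In the nuclear complex, 5 of 9 genes fell and 1 rose. Rbpj, the DNA-binding partner of all Notch receptors, fell from 5.29 ± 0.587 to 2.71 ± 0.334 FPKM, and Ep300, which encodes p300, fell from 8.27 ± 0.591 to 3.33 ± 0.361 FPKM (SD, n = 3 each). These are RNA levels, whereas the paper reports, by western blot, more p300 protein in tumors than in normal tissue. Maml2, a Mastermind-like coactivator, and Kat2b, an acetyltransferase, fell by 1.04 and 1.02 on the log2 scale, and Kat2a, its paralog, rose by 1.15. The fall of Rbpj and the rise of Hes1 and Hey1 were thus measured in the same samples. Of 11 corepressor genes, 3 rose, among them Tle2 at a log2 fold change of 2.21 and Ctbp1 at 0.51, and 3 fell, with Spen at -1.34, Ncor1 at -1.08 and Tle4 at -0.76. In the injected mice, read from another set of rows, Ep300 measured 8.32 ± 2.21 FPKM in DMSO and 10.3 ± 1.06 FPKM in C646 tumors (SD, n = 3 each).

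Of 10 inhibitors of the pathway, 7 were lower and 2 higher. Dtx1, a Deltex ubiquitin ligase known in lymphocytes, fell from 10.3 ± 1.14 to 0.0965 ± 0.116 FPKM, Numbl, a paralog of the endocytic adaptor Numb, fell by 2.25 on the log2 scale and Dtx4 by 0.85. Fbxw7, the ubiquitin ligase subunit that marks the Notch intracellular part for breakdown, rose by 0.67 and Cul1, its scaffold, by 0.54. The Fbxw7 level is a sum of 3 rows. With only the highest row of a repeated name, 15 pathway genes were called higher, against 16. Of 10 other targets tested, 6 rose and 3 fell. Hes7 rose from 0.157 ± 0.0630 to 2.07 ± 0.526 FPKM, Gata3, a luminal transcription factor, rose by 1.52 on the log2 scale and the row of Ccnd1, the cyclin D1 gene, by 1.23, whereas Il2ra, the alpha chain of the interleukin-2 receptor of T cells, fell by 4.22, Nrip1 by 1.46 and Heyl by 1.03. The targets of this list therefore did not move one way. The 5 lymphocyte marker genes fell in the same tumors as Mfng, Lfng, Dtx1 and Il2ra, from a summed level of at least 229 FPKM to at most 0.494 FPKM, and their part in these falls was not tested. In the injected mice, read from another set of rows, Dtx1 measured 4.30 ± 1.76 FPKM in DMSO and 4.15 ± 0.123 FPKM in C646 tumors (SD, n = 3 each). The summed level of the lymphocyte genes there was at most 0.667 FPKM, and the part of lymphocytes in the Dtx1 level was not tested.

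**Figure D5:**
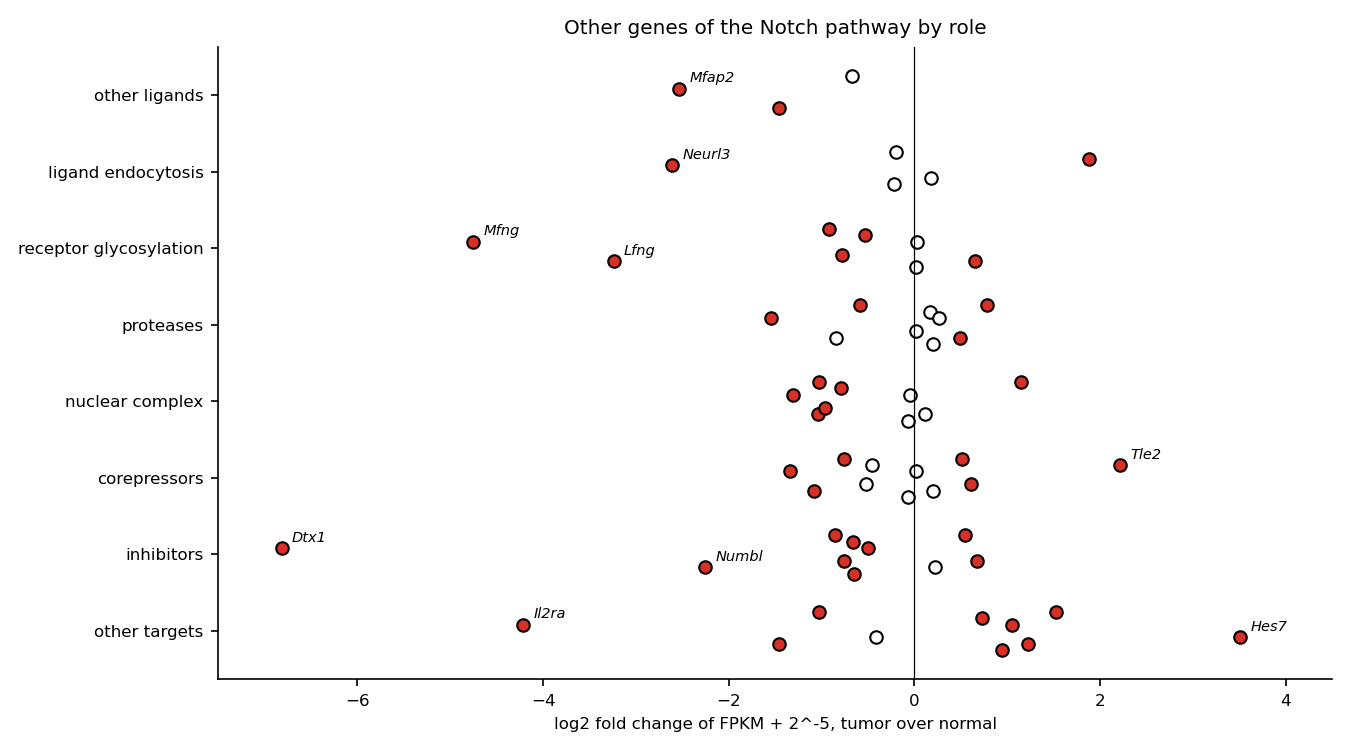
Log2 fold change of tumor over normal for 65 other genes of the pathway by role, where filled points have an adjusted p under 0.05 and genes beyond 1.9 in either direction are named. Of the filled points 28 lie below 0 and 16 above it, with Dtx1 at -6.82 and Hes7 at 3.51.

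C646 against DMSO addressed whether inhibition of p300, a coactivator of the Notch nuclear complex, came with changed gene expression in tumors. Of 12083 genes tested with limma, 0 were called higher (0%) and 0 lower (0%), and 169 were higher and 215 lower at an unadjusted p under 0.05. None of the 10 Notch genes was called or had an unadjusted p under 0.05 in limma, and the smallest adjusted p over all genes was 0.990. In all 10 genes the groups overlapped. Over all genes tested, groups without overlap were seen in 4.04% in the higher and 4.52% in the lower direction.

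Of the 2 targets, Hey1 had the wider interval. Hes1 measured 76.9, 69.0 and 48.7 FPKM in DMSO tumors and 59.2, 44.5 and 47.8 FPKM in C646 tumors, with a log2 fold change of -0.35 and a 95% confidence interval from -0.83 to 0.14. Hey1 measured 202, 175 and 70.7 FPKM in DMSO tumors and 169, 92.1 and 117 FPKM in C646 tumors. DMSO replicate 3 was the lowest of the 6 and the log2 fold change was -0.15, with an interval from -1.15 to 0.84. This interval leaves room for a fall or a rise of Hey1 by more than 0.8 on the log2 scale. Both targets were read in the same 6 tumors, and Hes1 and Hey1 had a Pearson r of 0.873 and a Spearman rho of 0.829 over them, or r = 0.751 over the 4 tumors left after removing the 2 whose Hes1 level was farthest from the median. The points share libraries, and this is a description.

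The groups overlapped for the receptors too. Notch2 measured 5.93, 5.93 and 4.23 FPKM in DMSO tumors and 6.49, 4.80 and 6.61 FPKM in C646 tumors, with an interval of the log2 fold change from -0.37 to 0.68. Notch3 measured 23.8, 29.2 and 20.3 FPKM in DMSO tumors and 27.8, 23.4 and 28.3 FPKM in C646 tumors, with the narrowest interval of the 10 genes, from -0.27 to 0.53. Notch4 was the least abundant of the 10 genes, with 3.002, 1.40 and 2.33 FPKM against 1.895, 1.003 and 1.51 FPKM. Its log2 fold change of -0.58, the largest of the 10 genes in size, had an interval from -1.55 to 0.40.

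Notch1 and Jag2 each came in 2 rows in the files of the injected mice. One row of each gene stood mostly or only among genes of the minus strand, the strand of both genes, and the other mostly or only among genes of the plus strand. The minus-strand row of Notch1 measured 10.6, 24.1 and 8.42 FPKM in DMSO tumors and 17.6, 18.0 and 21.6 FPKM in C646 tumors, and the other row 10.4, 27.0 and 22.8 FPKM and 24.1, 22.0 and 23.5 FPKM. The rows were near each other except in DMSO replicate 3, where they differed by more than 2 times. Summed, as the rule for repeated names asks, Notch1 had a log2 fold change of 0.39 with an interval from -0.32 to 1.10, and with the minus-strand row alone 0.55 with an interval from -0.33 to 1.43. Summed Jag2 measured 3.72, 5.66 and 20.6 FPKM in DMSO tumors and 4.84, 7.16 and 9.93 FPKM in C646 tumors. The minus-strand row of Jag2 measured 3.46, 2.87 and 10.4 FPKM in DMSO tumors and 2.70, 4.95 and 5.19 FPKM in C646 tumors, and the other row 0.256, 2.79 and 10.2 FPKM and 2.13, 2.21 and 4.74 FPKM, so that the rows disagreed most in DMSO replicate 1. One DMSO tumor stood far above the others, and the log2 fold change was -0.11 with the widest interval of the 10 genes, from -1.58 to 1.36. In that tumor, DMSO replicate 3, the summed level of 7 basal and myoepithelial marker genes was 745 FPKM, against 70.0 to 127 FPKM in the other 5, and its part in the Jag2 value was not tested. With the minus-strand row alone the log2 fold change of Jag2 was -0.19 with an interval from -1.42 to 1.04.

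The remaining ligands overlapped as well. Jag1 measured 2.996, 1.48 and 3.47 FPKM in DMSO tumors and 1.92, 1.23 and 2.18 FPKM in C646 tumors, with an interval of the log2 fold change from -1.50 to 0.47. Dll1 measured 11.7, 38.7 and 12.1 FPKM in DMSO tumors and 23.6, 14.3 and 15.6 FPKM in C646 tumors, where DMSO replicate 2 stood apart. Dll4 measured 3.49, 4.83 and 4.67 FPKM in DMSO tumors and 4.73, 3.58 and 5.56 FPKM in C646 tumors. Of the 63 pathway genes of the list that were tested, 0 were called in either direction by limma, and their median log2 fold change was 0.04 beside -0.01 for all genes. Of these, Cdkn1a, Ccnd1 and Hes6, named after their values were seen, were lower with C646 at an unadjusted limma p under 0.05. Their log2 fold changes were -1.29, -0.55 and -0.26. Over all 12083 genes tested, 169 were higher and 215 lower at that threshold. Skeletal muscle marker genes summed to at most 0.934 FPKM in DMSO replicates 1 and 2 and C646 replicate 2 and to between 274 and 296 FPKM in the other 3 tumors, so that they did not separate the groups. Adipocyte marker genes did separate them, with a summed level of 10.1, 41.7 and 47.2 FPKM in DMSO tumors and 57.2, 259 and 289 FPKM in C646 tumors. In 5 of these 6 genes the groups did not overlap, among them Adipoq, the adiponectin gene, with 0.585 ± 0.856 FPKM in DMSO and 12.3 ± 9.71 FPKM in C646 tumors (SD, n = 3 each), but none of the 5 that were tested was called by limma. The part of these adipocyte genes in the values of the Notch genes was not tested.

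Set beside the normal samples without a test, since the files of the injected mice hold another set of rows, the 9 tumors of both experiments kept some of the pattern. Hey1, Hes1 and Dll1 lay above every normal sample in 9 of 9 tumors, and Jag1 lay below every normal sample in 9 of 9. Notch1 also lay above in 9 of 9, but its levels in the injected mice sum 2 rows and are not comparable. With its minus-strand row alone, DMSO replicate 3 at 8.42 FPKM lay below every normal sample and DMSO replicate 1 at 10.6 FPKM within their range. The share of all genes that lay above or below every normal sample in all 9 tumors was not computed. In the 3 untreated tumors alone it was 33.1% above and 35.8% below, so these counts cannot be read as particular to the Notch genes. Other genes differed between the tumor sets. Notch3 lay between 20.3 and 29.2 FPKM in the 6 injected tumors and between 4.42 and 9.20 FPKM in the untreated tumors, and Notch4 lay between 1.003 and 3.002 FPKM and between 3.90 and 6.75 FPKM. Notch2 lay below every normal sample in 5 of 9 tumors, which were all 3 untreated tumors and 2 injected tumors. The ratio of Hey1 to Hes1 lay between 1.45 and 2.86 in the injected tumors, as against at most 0.409 in normal samples.

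Over all 12 samples and 11484 genes tested in both comparisons, the genes whose log2 levels were most like those of Hey1 were Wtip, Aqp5 and Lpcat2, with Pearson r of 0.992, 0.991 and 0.988. Those most like Jag1 were Ptprm, Igfbp7 and Abcc9, a mural marker gene, with r of 0.979, 0.962 and 0.958. Jag2 was most like Col17a1, which encodes a collagen of hemidesmosomes, Arsi and Il33, with r of 0.907, 0.905 and 0.896. Notch3 was most like Creb3l2 (0.986), Dll1 like Dctn5 (0.947), Dll4 like Slc40a1 (0.911), Hes1 like Mapk8ip1 (0.980), Notch2 like Gm15800 (0.966) and Notch4 like Mirlet7i (0.963). These correlations describe samples that fall into separate tissues and file sets, and they were read with no test.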

How the data were processed

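RNA-seq of poly-A RNA from non-directional libraries was read in 12 samples. Reads were trimmed by the authors (Cutadapt), aligned to mm10 (TopHat 2.1.1) and summarised as FPKM (Cufflinks 2.2.1), and a table with FPKM by gene name was deposited for every sample. The annotation is not given in the sources used here. Normal and tumor tables held 26220 rows (1837 unnamed, dropped) and tables of injected mice 24304. FPKM of repeated names was summed. Jag2 of the first tables, and Aph1b, Ccnd1 and Pdgfra of both, came from joined rows. In the tables of injected mice so did Krt14 (with Krt16), Esam (with Msantd2) and Egfl7 (with Mir126a). Mapped reads were not in the tables. The most common ratio of values under 0.1 FPKM gave depths within 1.464-fold for all pairs of injected tumors and 1.659-fold for all pairs of untreated tumors, with no sharp peak between normal and tumor samples.

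Tests used limma 3.58.1 in R 4.3.3 (lmFit, eBayes with trend), which was tested on simulated data, and exact permutation tests in scipy 1.17.1. Positions were on GRCm38 (GENCODE vM21). Named genes were the 10 genes, up to 3 called pathway genes per role and direction, marker genes, and the 3 genes most alike, of which some are not reported here. The genes and lists were chosen with earlier results of these data known. Alternatives were pseudocounts of 1 and 0.25, no filter, median-ratio scaling, quantile normalization, the highest row of a repeated name, no variance trend, 1 fit of 12 samples, a replicate block and leaving out each sample. The minus-strand rows of Notch1 and Jag2 were tried after seeing the data.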

Additional observations from a re-analysis of the deposited data

How the results depend on the processing

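In tumor against normal, Notch2, Jag1, Dll1 and Hey1 kept their direction and call under every alternative run, with limma adjusted p of at most 0.0311, 0.00237, 0.0381 and 0.00133. Quantile normalization moved the median log2 fold change of all genes to 0.12, called 4348 genes higher and 3640 lower against 3758 and 4128, and turned Notch4 to 0.24. Notch1 also lost its call in 1 fit of all 12 samples (limma adjusted p = 0.0808). When each sample was left out in turn, between 2 and 4 of the 10 genes were higher (2 without Normal replicate 2), between 2570 and 4172 of all genes were lower (2570 without Normal replicate 3, 2686 without Normal replicate 2), Notch4 ranged from -0.34 to 0.055 and Jag2 from -0.51 to 0.0037 on the log2 scale. In C646 against DMSO no setting called any of the 10 genes, and 12 of all genes were lower without DMSO replicate 2 (range 0 to 12). Leaving out single samples turned the log2 fold change of Dll1 (range -0.32 to 0.55), Dll4 (-0.061 to 0.26), Hey1 (-0.62 to 0.13), Notch2 (-0.0056 to 0.30) and Jag2 (-0.62 to 0.61), each of which includes 0. The cause of these changes was not tested beyond the smaller number of samples. The replicate numbers did not pair the samples: deviations of same-numbered samples from their group means correlated at -0.0384, -0.0982 and 0.0104 in tumor and normal and at 0.175, 0.0699 and 0.109 in C646 and DMSO. A replicate block gave 3439 genes higher and 3827 lower in tumors, with 4 and 2 of the 10 genes, and 0 in C646 against DMSO.

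With 3 samples a group, values without a call have wide intervals. The number of reads behind each value is not in the tables, so no counting error can be given, and genes near 1 FPKM, such as Jag1 in tumors and Notch4 in injected tumors, lie near the minimum of the filter. Tables of the 2 experiments hold different rows, so levels between them are side by side only.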

Other observations

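Notch1 and Notch4 went in opposite directions across the 6 injected tumors (Pearson r = -0.787, Spearman rho = -0.657), but r was 0.188 over the 4 tumors left after removing the 2 farthest from the median Notch1 level, so the relation rests on those tumors. Notch1 and Dll1 had r = 0.735 and rho = 0.943 over the same 6 tumors, and r = 0.777 over the 4 left by the same rule. Both are descriptions of samples that share libraries and experiment, picked after the values were seen. In both, Notch1 was the sum of 2 rows, and its minus-strand row alone was not used for a correlation. The ratio of Dll1 to Jag1 spanned 3.497 to 26.2 over the DMSO tumors and 7.14 to 12.3 over the C646 tumors.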
